A study of Mus musculus with 6 samples.

Results

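Chemokine receptors are G protein-coupled receptors that steer T cells along gradients of small secreted proteins, the chemokines. When a ligand binds, Gi proteins are released, G protein-coupled receptor kinases and arrestins switch the receptor off, and the actin cytoskeleton and integrins carry out the movement. A naive T cell circulates through lymphoid organs, and after activation through its antigen receptor it exchanges part of its receptor set for receptors that lead to inflamed skin, gut, liver or B cell follicles. The RNA levels of 9 such receptors, Ccr2, Ccr4, Ccr6, Ccr8, Ccr9, Cxcr3, Cxcr4, Cxcr5 and Cxcr6, are described here, and each was found in the gene and transcript tables by its Ensembl identifier without the version. They are 9 of 52550 genes listed, they hold 30 of the transcripts listed, and all 9 passed the filter on low counts.

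The samples were mouse splenic CD3+ T cells of genotype WT, isolated magnetically, cultured with serum and activated with antibodies to CD3 and CD28 for 24 h. In the group stimulated (n = 3) nothing else was added. For the group stimulated+DMGV (n = 3) the labels give the small molecule DMGV, dimethylguanidino valeric acid, at 100 ng/ml. The study describes its sequenced samples at this dose and time as treated with LNY1, its name for an inhibitory factor in fibroblast-conditioned medium. It equates LNY1 with the dimethylarginines ADMA and SDMA, which the enzyme AGXT2 converts to DMGV. The labels are followed here, and which compound was added remains uncertain. The replicates are labelled biological. The labels give no strain, sex or age, and the study's methods state for its mice in general that both sexes were used at an age of 6 to 8 weeks and list C57BL among several strains, without tying a strain to these samples. No unstimulated samples are among the 6, so that the levels below describe activated cells with and without DMGV and not the effect of activation itself.

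The summed gene counts ranged from 37758725 to 43718867 per library, more than the read depth the labels give. Small counts fell preferentially on multiples of 4 (4234 table entries held a count of 4, against 1859 with 3 and 2559 with 5), so a count may not stand for a single fragment, and no counting interval is given. On the first principal component, which held 32.2% of the variance, stimulated replicate 3 and stimulated+DMGV replicate 1 stood apart, 1 in each group. All 13 T cell markers were measured, and their summed level was 3980 to 4320 CPM (TMM-normalised counts scaled to a common library total) in stimulated and 4270 to 4560 CPM in stimulated+DMGV, with 12 of the 13 above 0 in log2 fold change and none past the threshold. Whether this had a part in the receptor values was not tested. The summed levels of other lists were lower, at 250 to 275 CPM for the 13 B cell markers, of which Ighm held 234 to 262 CPM, and at 27.9 to 52.8 CPM for the 13 monocyte and macrophage markers. Dendritic cell markers had 70.8 to 97.6 CPM, of which Bst2 held 58.8 to 85.1, NK and innate lymphoid cell markers had 5.28 to 8.58 CPM, and erythroid and platelet markers had 2.94 to 5.98 CPM. All 9 neutrophil markers had 0 counts, as had all 37 mitochondrial genes. In bulk RNA, fewer cells of a type and less RNA per cell cannot be told apart.

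Cxcr4 had the lowest p among the 9 genes, and its 2 annotated transcripts differ at the first splice junction. The coding sequence is shown from the start codon through the end of exon 1 to the first 9 bases of exon 2, on the minus strand, with the 6 bases that only Cxcr4-201 keeps in capitals (GENCODE M21, GRCm38, Cxcr4-201 at chr1:128588199-128592290 and Cxcr4-202 at chr1:128589099-128592293).
Cxcr4-201: atggaaccgatcagtGTGAGTatatacact
Cxcr4-202: atggaaccgatcagtatatacact
The 6 bases follow the first 5 codons and leave the reading frame as it is.

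The 250 bases before the transcription start are shown for Cxcr4, the gene with the lowest p, and for Ccr4 and Ccr8, the most abundant of the 9. They are RefSeq sequences on GRCm38.p6, read 5′ to 3′ on the gene's own strand, and 8 of the 9 genes had a promoter in the RefSeq table. Capitals mark every match to 4 motifs on either strand, and for each the share of all 32851 promoter windows of this length in the table that hold it is given. The core of NF-κB and NFAT sites, GGAAA, occurs in 55.6% of windows. The AP-1 motif TGANTCA occurs in 6.75%. The GC box GGGCGG occurs in 32.7%. The TATA box motif TATAAA occurs in 12.4%.
Cxcr4, chr1:128592300-128592549, minus strand: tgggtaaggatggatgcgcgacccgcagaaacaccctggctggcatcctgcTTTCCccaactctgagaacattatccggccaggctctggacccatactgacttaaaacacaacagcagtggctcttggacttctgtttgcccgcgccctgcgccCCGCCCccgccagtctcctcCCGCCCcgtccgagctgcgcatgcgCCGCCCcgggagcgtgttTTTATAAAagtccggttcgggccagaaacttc
Ccr4, chr9:114496545-114496794, minus strand: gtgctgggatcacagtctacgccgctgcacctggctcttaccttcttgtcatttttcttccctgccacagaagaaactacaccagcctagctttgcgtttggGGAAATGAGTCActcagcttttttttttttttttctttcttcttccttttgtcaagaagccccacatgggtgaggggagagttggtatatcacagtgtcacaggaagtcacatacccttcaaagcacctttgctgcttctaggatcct
Ccr8, chr9:120091883-120092132, plus strand: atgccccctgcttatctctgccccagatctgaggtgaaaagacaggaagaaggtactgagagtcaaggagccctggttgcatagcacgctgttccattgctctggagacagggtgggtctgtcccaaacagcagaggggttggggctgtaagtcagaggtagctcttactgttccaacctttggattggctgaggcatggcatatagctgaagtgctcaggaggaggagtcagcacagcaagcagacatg
The Cxcr4 window held 3 matches to GGGCGG and a TATAAA match on each strand that overlap each other, starting 32 and 30 bases before the start, and among the 9 windows of these genes (Ccr6 has 2) it was the sole one with either motif. In the Ccr4 window a TGANTCA match directly followed a GGAAA match. The Ccr8 window held none of the 4 motifs. A match describes these letters and not a bound site.

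Per length, the receptors spanned more than 2 orders of magnitude in these activated cells. In FPKM (fragments scaled to gene length and library total, as deposited), averaged over the 6 libraries of both groups, Ccr8 had 41.1 ± 1.23 and Ccr4 had 38.6 ± 4.56 (SD, n = 6), levels above those of 94.3% and 93.8% of the 22526 genes with a count. Ccr8 is the receptor of CCL1 and Ccr4 that of CCL17 and CCL22, and both are known from Th2 cells, regulatory T cells and skin homing. The order of these 2 was not settled, since Ccr8 was above Ccr4 in 3 of 6 libraries and below it in the others.

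Cxcr3, the receptor of CXCL9, CXCL10 and CXCL11 on Th1 and cytotoxic T cells, followed with 9.43 ± 0.29 FPKM. Cxcr6, the receptor of CXCL16 on effector and liver-resident T cells, had 7.02 ± 1.91 FPKM, and Cxcr5, the receptor of CXCL13 that leads follicular helper T cells and B cells into follicles, had 2.87 ± 0.59 FPKM (SD, n = 6 each). The ranges of these neighbours did not overlap. Cxcr4, the receptor of CXCL12 in bone marrow and lymphoid stroma, had 1.24 to 2.46 FPKM, which overlapped the range of Cxcr5 (2.29 to 3.67), although Cxcr5 was above Cxcr4 in 6 of 6 libraries.

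The remaining 3 receptors were near or below 1 FPKM. Ccr6, the CCL20 receptor of Th17 cells and B cells, ranged from 0.36 to 1.2 FPKM. Ccr9, the CCL25 receptor of gut-homing T cells, ranged from 0.36 to 0.50 FPKM and lay below Ccr6 in 4 of 6 libraries. Ccr2, the CCL2 receptor of monocytes and some effector T cells, was lowest, from 0.15 to 0.33 FPKM. When CPM was divided by the length of the transcripts counted, Ccr4 (47.9 CPM per kilobase) came before Ccr8 (46.2) and the other 7 genes kept their places. Ccr6 (1.07) and Ccr9 (1.06) were nearly level on this measure, with overlapping ranges, so their order was not settled.

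**Figure D1:**
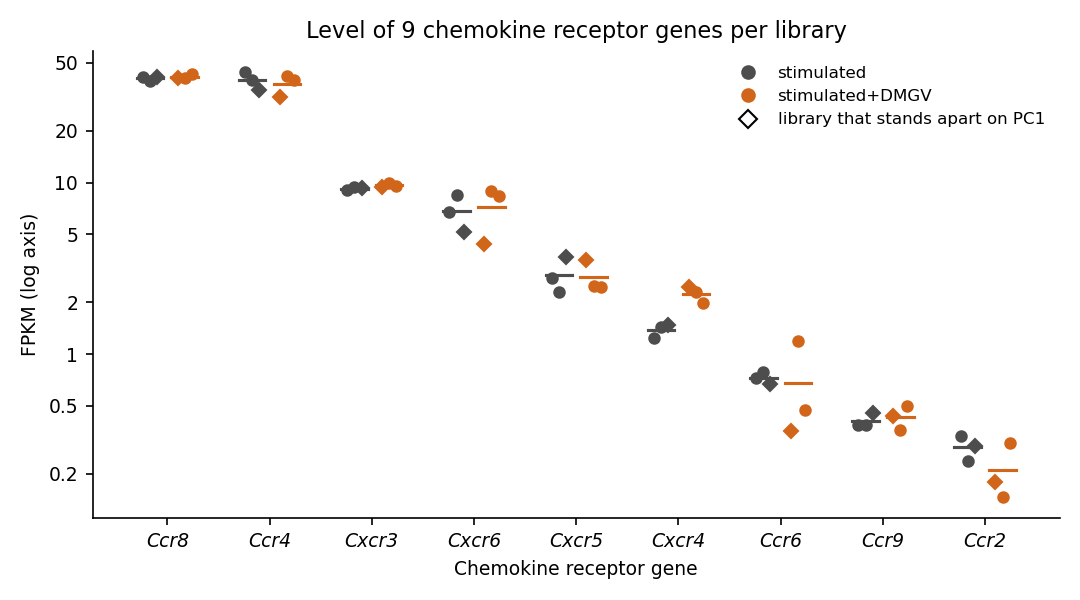
Level of each receptor gene in FPKM on a log axis, by library. Points are libraries (grey stimulated, orange stimulated+DMGV, diamonds the 2 libraries that stand apart on the first principal component) and lines are group means. Ccr8 and Ccr4 lie near 40 FPKM and Ccr2 lies below 0.34 FPKM in every library.

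The comparison of stimulated+DMGV with stimulated asks whether DMGV changes the RNA of these receptors during activation. From its RNA sequencing with LNY1, the study reports chemokine and cytokine signalling among the pathways that were raised. That was a test of pathways, which was not repeated here. edgeR's quasi-likelihood test over 14786 genes put none of the 9 past an adjusted p of 0.05, where 0.0135% of all genes (2 genes) passed. At an unadjusted p under 0.05 there was 1 of the 9, Cxcr4, against 3.19% of all genes in either direction and 1.63% of all genes higher in stimulated+DMGV. DESeq2, which passed 14 genes in all, passed none of the 9 and gave the same 1 gene at an unadjusted p under 0.05. Among all genes, 500 of 22526 had an unadjusted p under 0.05 in DESeq2. The log2 fold change was above 0 for 5 of the 9 and below 0 for 4, with a median of 0.045, beside 50.6% of all genes tested above 0 and a median of 0.0024. The median of the 9 rested on single libraries, since it was 0.11 (7 of the 9 above 0) without stimulated+DMGV replicate 1 and 0.0074 without stimulated+DMGV replicate 3.

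Cxcr4 (ENSMUSG00000045382.6, chr1:128588199-128592293, minus strand) had 2.50, 2.99 and 2.92 CPM in stimulated replicates 1 to 3 and 4.90, 4.78 and 4.11 CPM in stimulated+DMGV replicates 1 to 3. These values rest on 95, 122 and 121 counts against 218, 206 and 163 counts. All 3 libraries with DMGV lay above all 3 without it. The means were 2.81 ± 0.26 and 4.60 ± 0.42 CPM (SD, n = 3 each), and their ratio was 1.64. The log2 fold change was 0.71 with a standard error of 0.18 and a 95% confidence interval of 0.30 to 1.13 (unadjusted p = 0.0046, rank 35 of 14786 genes, edgeR adjusted p = 0.999), so Cxcr4 did not pass the test. Each library left out in turn gave 0.62 to 0.79, and without both libraries that stand apart it was 0.70.

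Cxcr4 was the sole gene of the 9 whose groups did not overlap in CPM (two-sided exact permutation test, p = 0.1, the smallest that 3 against 3 allows), and 8.86% of all genes tested were without overlap in either direction, among them 4.92% of all genes tested with stimulated+DMGV higher. In the deposited FPKM values, and in CPM scaled by library size alone, Cxcr3 was a second, while 3.6% of all genes were without overlap and higher in FPKM.

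Cxcr3 (chrX:101731535-101734269, minus strand) had 17.4, 18.6 and 17.7 CPM in stimulated and 18.1, 19.5 and 19.1 CPM in stimulated+DMGV. The groups overlapped by a single library in CPM. In FPKM the values were 9.01, 9.37 and 9.30 against 9.47, 9.89 and 9.58, without overlap (two-sided exact permutation test, p = 0.1). The difference was small on either scale, with a log2 fold change of 0.08 and a 95% confidence interval of -0.14 to 0.30 (edgeR adjusted p = 0.999), a range of 0.91 to 1.23 as a ratio.

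Cxcr6 (chr9:123806475-123811760, plus strand) had 14.5, 18.8 and 11 CPM in stimulated and 9.32, 19.7 and 18.6 CPM in stimulated+DMGV. It was low in the 2 libraries that stand apart (11 and 9.32 CPM) and between 14.5 and 19.7 CPM in the other 4. Between the groups its log2 fold change was 0.11, with a 95% confidence interval of -0.63 to 0.84 (edgeR adjusted p = 0.999). It lies inside the span of Fyco1 on the other strand and shares no exonic base with it.

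Ccr4 (chr9:114490316-114504916, minus strand) had 152, 140 and 118 CPM in stimulated and 108, 147 and 141 CPM in stimulated+DMGV. It too was low in the 2 libraries that stand apart and at 140 to 152 CPM in the other 4. For Ccr4 the log2 fold change was -0.05 with a 95% confidence interval of -0.39 to 0.29 (edgeR adjusted p = 0.999), that is between 0.76 and 1.22 as a ratio. Ccr8 (chr9:120092114-120094906, plus strand) varied least among the 9, with a coefficient of variation of 3.68% over the 6 libraries. Ccr8 had 54.3, 52.8 and 53.4 CPM in stimulated and 52.6, 54.9 and 58.0 CPM in stimulated+DMGV, with overlapping groups. Its log2 fold change was 0.04 with a 95% confidence interval of -0.15 to 0.24 (edgeR adjusted p = 0.999), the narrowest interval of the 9, and it bounds the ratio between 0.90 and 1.18.

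Cxcr5 (chr9:44511787-44561877, minus strand) had 10.3, 8.77 and 13.4 CPM in stimulated and 13.0, 9.57 and 9.41 CPM in stimulated+DMGV. Here the 2 libraries that stand apart were highest, at 13.4 and 13.0 CPM, and the other 4 had 8.77 to 10.3 CPM. For Cxcr5 the log2 fold change was -0.02 with a 95% confidence interval of -0.51 to 0.47 (edgeR adjusted p = 0.999). The B cell marker list, for a cell type that also carries Cxcr5, summed to 258 and 275 CPM in the 2 libraries that stand apart and to 250 to 261 CPM in the other 4. By group it was 250 to 275 CPM in stimulated and 250 to 261 CPM in stimulated+DMGV, 8 of its 13 genes were tested and Fcrla was at 0. Whether B cells had a part in the Cxcr5 values was not tested. Cxcr5 shares 110 exonic bases with Bcl9l on the other strand, and no source says that the counting took strand into account.

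Over all genes tested, 26.5% had both of these libraries above or below the other 4, as had 3 of the 9 receptors (Cxcr5 above, Ccr4 and Cxcr6 below). The values of Ccr4 and Cxcr6 went together over the 6 libraries (Pearson r = 0.86 of log2 CPM) and those of Cxcr5 and Cxcr6 went opposite ways (r = -0.95). These are descriptions of 6 points that share their libraries, 2 of which set most of the spread. The groups each hold 1 of the 2 libraries.

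**Figure D2:**
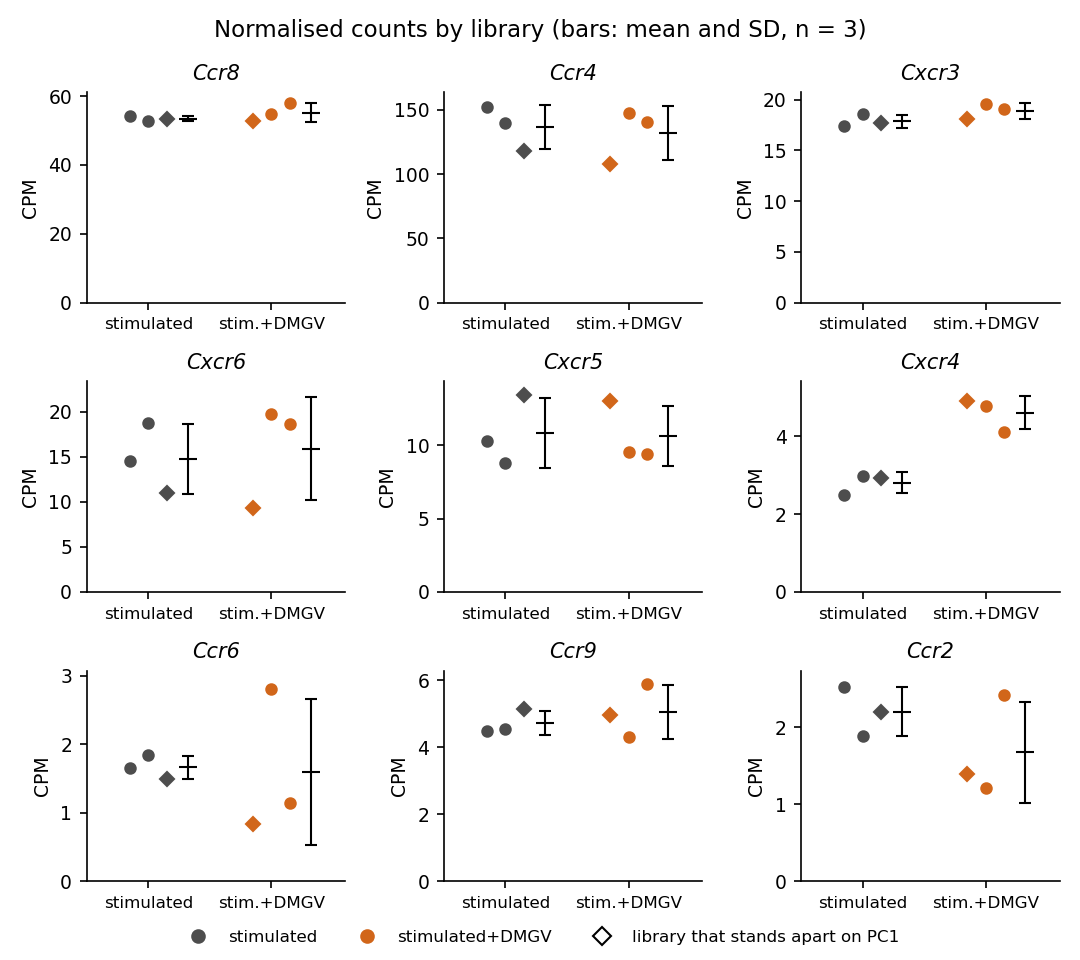
TMM-normalised counts (CPM) of each receptor gene, on axes that start at 0. Points are libraries, diamonds are the 2 libraries that stand apart, and the bars beside them are the group mean and SD (n = 3). The groups are separate for Cxcr4 (2.50 to 2.99 against 4.11 to 4.90 CPM), and the diamonds are low for Ccr4 and Cxcr6 and high for Cxcr5 in both groups.

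Ccr6 (chr17:8236043-8257141, plus strand) had 1.66, 1.84 and 1.5 CPM in stimulated and 0.83, 2.81 and 1.14 CPM in stimulated+DMGV. The 3 libraries without DMGV lay close together, and those with DMGV lay on both sides of them, with SDs of 0.17 and 1.07 CPM. The log2 fold change of -0.06 therefore had a wide 95% confidence interval of -1.14 to 1.02 (edgeR adjusted p = 0.999). Without stimulated+DMGV replicate 2 it was -0.76 (edgeR unadjusted p = 0.056), and without stimulated+DMGV replicate 1 it was 0.24. The SDs themselves were not compared by a test.

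Ccr9 (chr9:123678439-123784330, plus strand) had 4.48, 4.56 and 5.15 CPM in stimulated and 4.97, 4.30 and 5.91 CPM in stimulated+DMGV. The groups overlapped, with a log2 fold change of 0.10 and a 95% confidence interval of -0.32 to 0.51 (edgeR adjusted p = 0.999). Its exons share 269 bases with Gm17200 on the same strand, 1932 bases with AC165425.1 and 22 bases with Slc6a20a on the other, so its 170 to 234 counts per library are uncertain where the counting could split them.

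Ccr2 (chr9:124101950-124113557, plus strand) had 2.53, 1.89 and 2.20 CPM in stimulated and 1.39, 1.21 and 2.42 CPM in stimulated+DMGV. Stimulated+DMGV replicates 1 and 2 were the lowest of the 6 libraries, and replicate 3 lay within the range of the stimulated group. The log2 fold change was -0.40 with a 95% confidence interval of -1.15 to 0.35 (edgeR adjusted p = 0.999). With 1 library left out it ran from -0.76 without stimulated+DMGV replicate 3 to -0.21 without stimulated+DMGV replicate 2. The first of these fits gave an edgeR unadjusted p of 0.035, and 368 of 15223 genes in it had an unadjusted p under 0.05. No gene of the 9 passed the adjusted threshold in that fit. Monocytes also carry Ccr2. Their marker list summed to 27.9 to 52.8 CPM in stimulated and 30.1 to 34.6 CPM in stimulated+DMGV, 3 of its 13 genes were tested, Cd14 and C1qc were at 0, and Ly6c2, which T cells express too, held 17.8 to 40.8 CPM of it. Their part in the Ccr2 values was not tested.

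**Figure D3:**
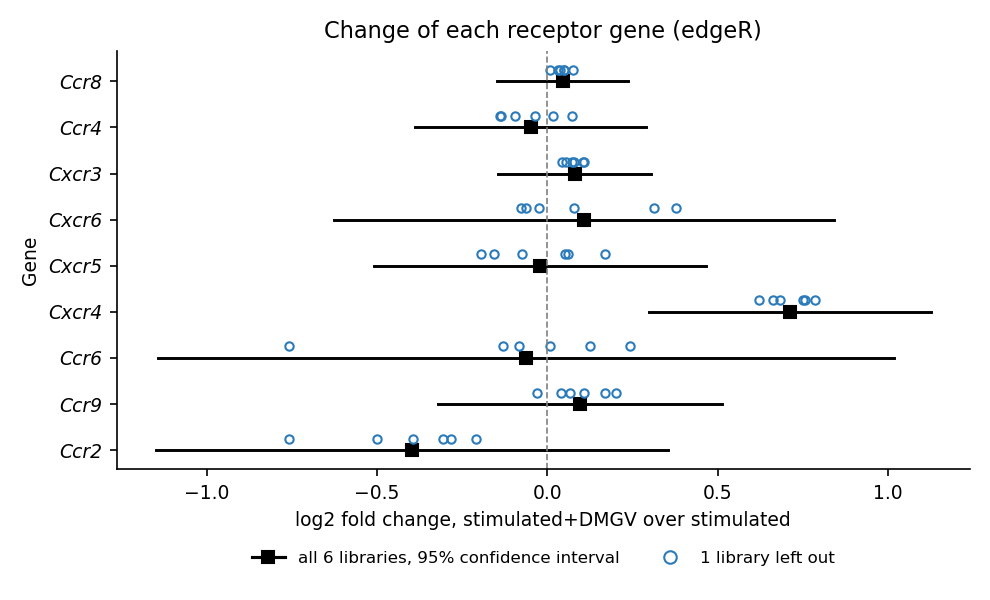
Log2 fold change of each receptor gene, stimulated+DMGV over stimulated, from edgeR. Squares and bars are the estimate from all 6 libraries with its 95% confidence interval, not adjusted over genes, and circles are the 6 fits with 1 library left out. The interval of Cxcr4 (0.30 to 1.13) lies above 0 and those of the other 8 genes include 0, and for Ccr4, Ccr6, Ccr9, Cxcr5 and Cxcr6 the circles fall on both sides of 0.

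The transcript table was read for the same genes. Of 30 transcripts listed, 23 had a count and 14 were tested, and none passed the adjusted threshold in edgeR's test over 38401 transcripts, where no transcript at all passed (1235 had an unadjusted p under 0.05, and DESeq2 passed 387 in all and 0 of these). The groups did not overlap for 2 of the 14, Cxcr4-201 and Ccr2-203, against 9.25% of all transcripts tested. Ccr8 and Cxcr3 have 1 transcript each, and Ccr4-201 and Cxcr6-201 held at least 98.7% of their genes' counts in every library. How reads common to several transcripts of a gene were divided is not given in the sources used here. The splits between transcripts below are therefore those deposited, and they are uncertain.

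Cxcr4-201, the 1805-base transcript with the 6 extra coding bases shown above, had 95, 122 and 121 counts in stimulated and 177, 174 and 163 in stimulated+DMGV. All 3 libraries with DMGV were higher, with a log2 fold change of 0.53 and a standard error of 0.25 (edgeR unadjusted p = 0.082, adjusted p = 1.00). Cxcr4-202, of 902 bases, had 0 counts in all 3 stimulated libraries and 41, 32 and 0 counts in stimulated+DMGV. Its share of the gene's counts was 18.8% and 15.5% in the 2 libraries that had it, and it did not pass the filter for testing. The third library with DMGV, in which Cxcr4-202 was listed at 0, had the smallest count of the gene in its group. As deposited, part of the gene-level difference of Cxcr4 thus stood in a transcript counted in 2 of 6 libraries. The part in Cxcr4-201 was smaller than that of the gene. Cxcr4-202 is annotated with 818 coding bases, against 1077 for Cxcr4-201. Since the division of reads common to both is not given, this split of the difference is uncertain.

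The deposited counts of Ccr2 were divided among 4 transcripts, and the division differed between libraries of a group. Ccr2-203 had 80, 30 and 44 counts in stimulated and 10, 27 and 27 in stimulated+DMGV, a log2 fold change of -1.34 with a standard error of 0.63 (edgeR unadjusted p = 0.078, adjusted p = 1.00). Ccr2-201 had 0, 33 and 41 counts against 9, 20 and 32, Ccr2-202 had 16, 6 and 4 against 8, 2 and 6, and Ccr2-204 had 0, 8 and 2 against 35, 3 and 31. Ccr2-203 held 83.3% of the gene in stimulated replicate 1 and 16.1% in stimulated+DMGV replicate 1.

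The transcript of Ccr6 with the most deposited counts differed between libraries. Ccr6-201 had 15, 43 and 62 counts in stimulated and 1, 14 and 16 in stimulated+DMGV, a log2 fold change of -1.97 with a standard error of 1.01 (edgeR unadjusted p = 0.10, adjusted p = 1.00). Ccr6-202 had 43, 32 and 0 counts against 36, 107 and 0. Ccr6-204 had 29 counts in stimulated+DMGV replicate 3 and 0 in the other 5 libraries. The highest gene count of Ccr6, 121 in stimulated+DMGV replicate 2, was thus mostly Ccr6-202.

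In Ccr9, Ccr9-203 had 121, 153 and 127 counts in stimulated and 113, 163 and 121 in stimulated+DMGV. Ccr9-204 was at 0 in the second replicate of both groups and at 40 to 81 counts in the other 4 libraries, and Ccr9-205 had 1 to 35 counts. In Cxcr5 the division was steadier. Cxcr5-201 held 72.9% to 82.1% of the gene and Cxcr5-204 held 15.5% to 25.5%, with 69, 58 and 102 counts of Cxcr5-204 in stimulated and 148, 64 and 92 in stimulated+DMGV.

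**Figure D4:**
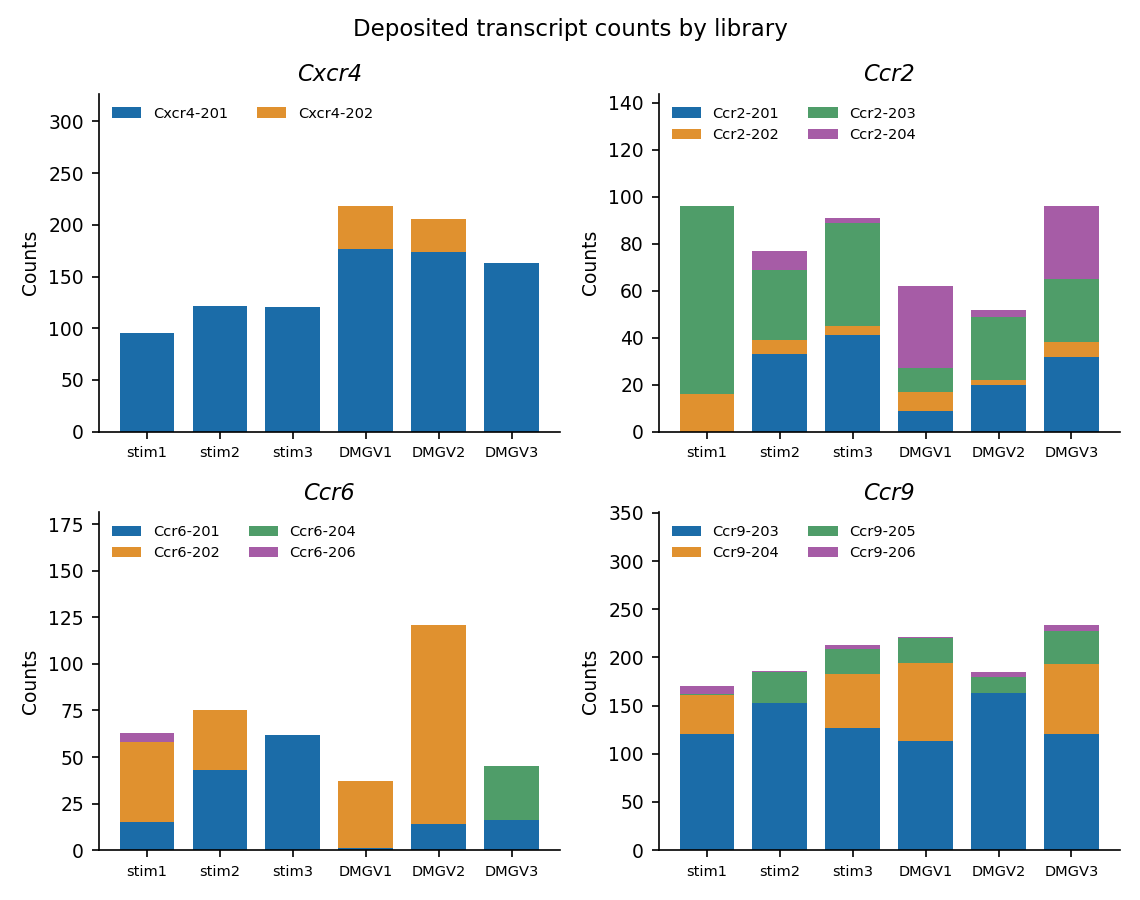
Deposited counts of the transcripts of Cxcr4, Ccr2, Ccr6 and Ccr9 in each library, stacked, on axes that start at 0 (stim1 to stim3 are the stimulated replicates and DMGV1 to DMGV3 the stimulated+DMGV replicates). Cxcr4-202 appears in DMGV1 and DMGV2 with 41 and 32 counts, and the leading transcript of Ccr2 and Ccr6 differs between libraries of the same group.

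The ligands of the 9 receptors were read from a list of 16 genes, 8 of which were tested. None passed the adjusted threshold, 6 were above 0, and the median log2 fold change was 0.17. Here and in the lists below, the genes given in CPM are the 3 of lowest p in their list. Their low p and separate groups follow in part from that choice. Over all genes tested, 8.86% were without overlap in either direction and 3.19% had an edgeR unadjusted p under 0.05. The CCR9 ligand gene Ccl25 had 2.90, 1.98 and 3.12 CPM in stimulated and 4.04, 3.88 and 4.74 CPM in stimulated+DMGV, without overlap. Its log2 fold change was 0.66 with a standard error of 0.23 (edgeR unadjusted p = 0.021, adjusted p = 0.999). The CXCR3 ligand gene Cxcl9 had 1.90, 1.18 and 1.62 CPM against 2.38, 3.02 and 2.22 CPM, also without overlap, with a log2 fold change of 0.70 and a standard error of 0.27 (edgeR unadjusted p = 0.033, adjusted p = 0.999). Mif, whose product binds CXCR4 besides its own receptor, was abundant at 624 ± 52.4 and 687 ± 37.1 CPM (SD, n = 3 each) with overlapping groups, and the CXCR4 ligand gene Cxcl12 had 0 counts in every library. Ccl2, Ccl7, Ccl8, Ccl12 and Cxcl11 were at 0 as well.

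Of 19 other chemokine, atypical chemokine and lymphocyte exit receptors, 10 were tested, 8 were above 0 and 2 below, the median was 0.13 and none passed. S1pr1, which lets lymphocytes leave lymphoid organs, had 6.50, 6.79 and 5.51 CPM in stimulated and 5.03, 4.78 and 4.42 CPM in stimulated+DMGV. All 3 libraries with DMGV were lower, with a log2 fold change of -0.40 and a standard error of 0.16 (edgeR unadjusted p = 0.036, adjusted p = 0.999). Ccr7, the lymph node homing receptor, had 502 ± 25.8 and 547 ± 15.8 CPM and Gpr183, which positions cells at the follicle border, had 75.3 ± 4.26 and 82.7 ± 2.71 CPM (SD, n = 3 each). In CPM the Ccr7 groups overlapped and the Gpr183 groups did not. Ccr10, Cxcr2, Ackr1 and Ackr3 were at 0 in all libraries. Ccr1, named after its values were seen, had 0 counts in the 3 stimulated libraries and 5, 30 and 16 in the others, and it did not pass the filter.

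Of 48 genes of the signalling machinery behind the receptors, 46 were tested, 27 were above 0, the median was 0.015 and none passed. Rgs16, an activation-induced brake on Gi signalling, had 131, 138 and 130 CPM in stimulated and 150, 157 and 164 CPM in stimulated+DMGV, without overlap. Its log2 fold change was 0.24 with a standard error of 0.07 (edgeR unadjusted p = 0.012, adjusted p = 0.999). Arrb1, encoding β-arrestin 1, had 14.2, 25.1 and 26.6 CPM against 12.4, 9.08 and 17.9 CPM, with overlap and a log2 fold change of -0.75 (edgeR adjusted p = 0.999). Grk6, a kinase that phosphorylates CXCR4 among other receptors, had 137 ± 4.33 and 123 ± 4.60 CPM (SD, n = 3 each), lower in all 3 libraries with DMGV, with a log2 fold change of -0.16 (edgeR adjusted p = 0.999).

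Transcription factors that textbooks tie to these receptors were all tested, 26 of 26, with 16 above 0, a median of 0.028 and none past the threshold. Rora, a factor of Th17 cells and innate lymphoid cells, had 7.06, 5.37 and 4.57 CPM in stimulated and 3.86, 1.88 and 1.39 CPM in stimulated+DMGV, without overlap. Its log2 fold change was -1.25 with a standard error of 0.39 (edgeR unadjusted p = 0.014, adjusted p = 0.999). Foxp3, the lineage factor of regulatory T cells, had 27.8, 25.5 and 32.5 CPM against 36.2, 35.4 and 38.3 CPM, without overlap and with a log2 fold change of 0.36 and a standard error of 0.11 (edgeR unadjusted p = 0.016, adjusted p = 0.999). Ahr, the aryl hydrocarbon receptor, differed by -0.53 on the log2 scale (edgeR adjusted p = 0.999), with 7.01 ± 0.51 and 4.87 ± 1.37 CPM (SD, n = 3 each).

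Of 12 genes that T cell receptor signals induce, all were tested, 7 were above 0, the median was 0.058 and none passed. Nr4a1, an immediate early gene that follows receptor signal strength, had 215, 208 and 245 CPM in stimulated and 302, 268 and 261 CPM in stimulated+DMGV, without overlap, a log2 fold change of 0.32 with a standard error of 0.09 (edgeR unadjusted p = 0.012, adjusted p = 0.999). The costimulatory receptors Tnfrsf9 (424 ± 38.2 and 463 ± 22.9 CPM) and Tnfrsf4 (269 ± 29.6 and 298 ± 25.9 CPM; SD, n = 3 each) had overlapping groups.

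**Figure D5:**
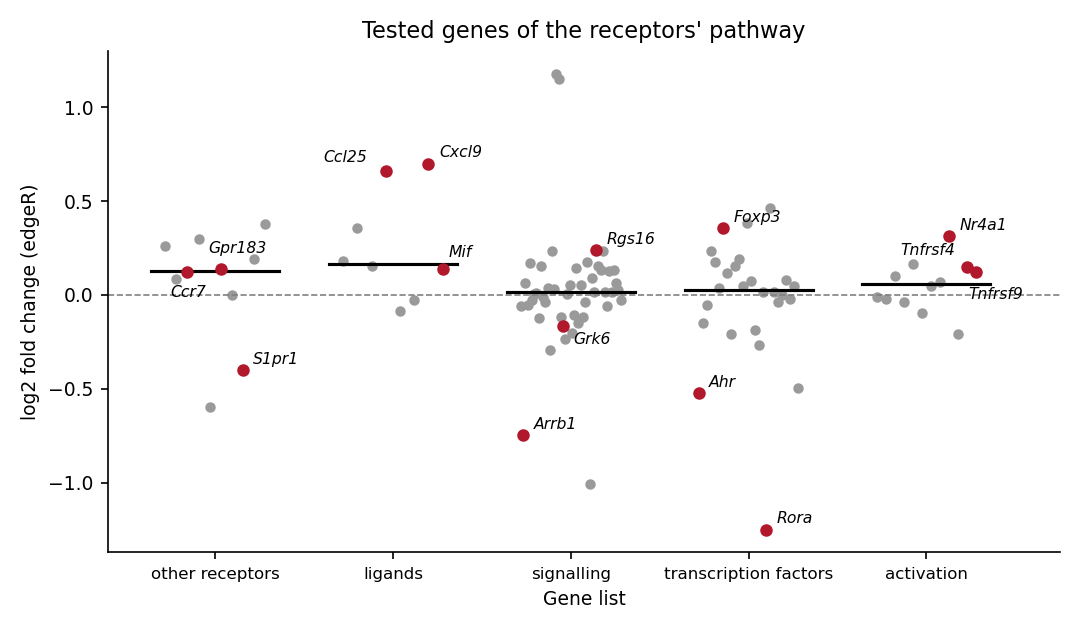
Log2 fold change (edgeR, stimulated+DMGV over stimulated) of the tested genes in 5 lists around the receptors. Points are genes, black lines are list medians (0.13, 0.17, 0.015, 0.028 and 0.058 from left to right), and the 3 genes of lowest p in each list are red and named. No gene shown passed the adjusted threshold.

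The gene whose log2 CPM followed a receptor most closely over the 6 libraries, among 8671 genes above 10 CPM, was Doc2a for Cxcr4 (Pearson r = 0.99), Pias2 for Ccr4 (0.998), Alkbh6 for Ccr8 (0.98), Tubgcp3 for Cxcr3 (0.98), Immp1l for Cxcr6 (0.99), Mical1 for Cxcr5 (0.99), Diaph1 for Ccr6 (0.98), Ccdc124 for Ccr9 (0.99) and Mark4 for Ccr2 (0.97). With 6 points, each receptor had genes with r over 0.95, from 3 for Ccr2 to 162 for Ccr4, and 17 for Cxcr4. These correlations describe likeness over these libraries alone.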

How the data were processed

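Per the labels and the study's methods, mRNA libraries from TRIzol-extracted total RNA were sequenced on an Illumina Xten, and the authors aligned the filtered reads by HISAT2 2.0.4 and took expression from StringTie. They deposited whole-number counts and FPKM values per gene and per transcript. The step that made the counts is not given in the sources used here. The submitters' processing notes name mm9, but 99.72% of the gene identifiers, without version, are in GENCODE M21 (GRCm38), from which symbols and coordinates were taken.

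Deposited counts were tested with edgeR 4.0.16 in R 4.3.3 (quasi-likelihood, TMM, default filter, two-sided, Benjamini-Hochberg over all genes or transcripts tested, threshold 0.05, no covariate), after the test had been tried on simulated counts. Deposited FPKM values were used for levels between genes and, as log2(FPKM + 1) or log2(FPKM + 0.1), in limma 3.58.1 as alternatives. The 9 genes, the lists and the tests were chosen with earlier results of these data known. Named by rule were the 9 genes, the 3 genes of lowest p in each list, the gene most like each receptor, and transcripts with 10% or more of a gene's counts in a library. Alternatives were DESeq2 1.42.0, other scalings and filters, summed transcript counts, a GC correction, the replicate number as a block, and libraries left out. The edgeR p-values weigh the difference between the groups against the spread between these samples, estimated with help from all genes. Python 3.11.15 and matplotlib 3.10.9 were used for tables and figures.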

Additional observations from a re-analysis of the deposited data

How the results depend on the processing

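None of the 9 receptor genes passed the adjusted threshold in any of the 18 alternative fits, and the number of them above 0 was 5 to 7. Their median log2 fold change, 0.045 with all libraries, ran from 0.0074 to 0.11 with 1 library left out, was 0.11 without both libraries that stand apart (6 above 0), and was 0.016 with the GC correction, 0.023 with log2(FPKM + 1), 0.028 with log2(FPKM + 0.1) and 0.030 with library size alone. The number of receptor genes without overlap between the groups was 2 in FPKM and 2 with library size alone, Cxcr3 beside Cxcr4. Both were higher in stimulated+DMGV, as were 3.6% of all genes tested without overlap in FPKM. The share of all genes with library size alone is not given here, so that count has no background beside it. Cxcr4 was above 0 in all 18 alternatives (0.44 with log2(FPKM + 1), which understates changes of low genes, to 0.79), with adjusted p from 0.65 to 1.00. Ccr8 and Cxcr3 were also above 0 and Ccr2 below 0 in all of them. With 1 library left out, the log2 fold change ran from -0.14 to 0.072 for Ccr4, -0.76 to 0.24 for Ccr6, -0.029 to 0.20 for Ccr9, -0.20 to 0.17 for Cxcr5 and -0.078 to 0.38 for Cxcr6, and the cause was not tested. Without both libraries that stand apart Ccr6 was at 0.18. A term for these 2 libraries, added after seeing the data, left every direction as it was, and the GC correction moved no receptor gene by more than 0.048. With the replicate block Cxcr4 had a log2 fold change of 0.71 (edgeR unadjusted p = 0.018, adjusted p = 1.00) and 0 genes of the whole table passed (340 at an unadjusted p under 0.05), against 2 (471) without it. Same-numbered libraries had correlations of -0.154, 0.121 and -0.148 between their deviations from the group means. The labels do not say whether the numbers pair the samples, and 3 such values cannot decide it. Of all genes, DESeq2 passed 14, the fit without both libraries 12 and the fits with 1 library left out 0 to 5. DESeq2 passed 387 transcripts and edgeR 0, none of them of the 9 genes. At 3 libraries a group and counts of 37 to 121 for Ccr6, differences smaller than the intervals given could not be resolved.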
